A study of Mus musculus with 14 samples.

Results

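Integrin chain genes of leukocytes and the gene of the adhesion protein PECAM1 were followed in RNA sequencing of mouse macrophages exposed to the cytokine IL4. The members were chosen by name: 8 of the 9474 genes in both deposited tables, namely Itgal, Itgam, Itgax, Itgb2, Itga4, Itga6, Itgb1 and Pecam1, all of which were present. In culture, monocytes from the marrow of C57BL/6J mice were grown for 7 days with the growth factor CSF1 and 20 ng/mL IL4 (4 libraries) or with CSF1 and no added IL4 (4 libraries). For CSF1 the labels name 25 ng/mL in one place and 20 ng/mL in another. In marrow, cells bearing the macrophage surface protein F4/80 were sorted 12 days after mice received acute myeloid leukemia (AML) cells, which carried either an IL4 cDNA (3 libraries) or an empty vector as the control (3 libraries). Every marrow library thus came from a host with leukemia, and the source of IL4 there was the transplanted cells. Whether each library stands for its own culture or animal is unstated in the labels, and p-values therefore reflect only how these samples spread, which may be technical.

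Integrins are surface receptors made of an alpha and a beta chain, and the pair sets which ligand is bound. The beta2 chain (Itgb2) is found on leukocytes and pairs with alphaL (Itgal, forming LFA-1, which binds ICAM proteins), alphaM (Itgam, forming Mac-1 or complement receptor 3) or alphaX (Itgax, forming complement receptor 4, whose alpha chain CD11c is a common dendritic cell and alveolar macrophage marker). The beta1 chain (Itgb1) pairs among others with alpha4 (Itga4, forming VLA-4, which binds VCAM1 and fibronectin) and alpha6 (Itga6, forming a laminin receptor). PECAM1, or CD31, is an adhesion protein of the immunoglobulin family on endothelium, platelets and many leukocytes, where it binds itself and takes part in the passage of leukocytes between endothelial cells. Macrophages use these proteins to adhere, to migrate and to engulf particles.

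The regions around the transcription starts of Itgax, Itgam and Itga4 are shown because these 3 alpha chain genes responded to IL4 in different ways and have a window in the RefSeq table used (build GRCm38.p6, 250 bases before to 50 after the start). Of the 8 genes, 4 had such a window, the last being Itgb1. All 3 windows below lie on the plus strand, and capitals mark matches to 1 of 5 motifs, searched on both strands: the STAT6 type (TTC, any 4 bases, GAA), the other STAT spacing (TTC, any 3 bases, GAA), the PU.1 core GAGGAA, the RUNX core TGTGGT and the AP-1 type TGANTCA.
Itgax (chr7:128129300-128129599): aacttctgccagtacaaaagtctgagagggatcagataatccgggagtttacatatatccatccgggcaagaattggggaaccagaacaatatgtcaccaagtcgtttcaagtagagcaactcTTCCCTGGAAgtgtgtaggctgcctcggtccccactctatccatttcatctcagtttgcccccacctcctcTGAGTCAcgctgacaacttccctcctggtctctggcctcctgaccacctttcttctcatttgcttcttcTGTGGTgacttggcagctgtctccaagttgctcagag
Itgam (chr7:128062390-128062689): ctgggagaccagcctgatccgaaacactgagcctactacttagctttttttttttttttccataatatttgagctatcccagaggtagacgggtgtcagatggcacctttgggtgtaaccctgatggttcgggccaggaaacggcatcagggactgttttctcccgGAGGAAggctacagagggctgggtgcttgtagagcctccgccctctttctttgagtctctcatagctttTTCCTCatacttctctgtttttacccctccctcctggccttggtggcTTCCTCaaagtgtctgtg
Itga4 (chr2:79255176-79255475): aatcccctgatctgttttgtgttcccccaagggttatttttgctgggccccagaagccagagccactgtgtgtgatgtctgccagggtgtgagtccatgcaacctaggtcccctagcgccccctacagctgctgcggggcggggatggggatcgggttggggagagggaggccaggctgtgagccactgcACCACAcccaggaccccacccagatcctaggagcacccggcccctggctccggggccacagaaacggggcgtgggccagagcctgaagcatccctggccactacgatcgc
The Itgax window held a STAT6-type match that starts at base 124 of the window, an AP-1 match at base 195 and a RUNX core at base 264. Among 32851 promoter windows of the same length, 6.95% held the STAT6 type, 7.81% the AP-1 type and 16.8% the RUNX core. The Itgam window held the PU.1 core 3 times, at bases 167, 236 and 283, the last 2 on the other strand, against 28.3% of windows with at least 1. The Itga4 window held a RUNX core at base 191 on the other strand. The Itgb1 window held a single PU.1 core, and the other STAT spacing, found in 8.30% of windows, was in none of the 4. Matches did not overlap one another. They describe letters only, and no binding was measured.

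The deposited values are log2 values from which whole reads were recovered for 9415 genes, giving 580366 to 943482 reads per library. Itgb2 was among the 59 genes without recovered reads, so only its log2 values are given. In culture the median log2 fold change of all genes was -0.36, so culture changes of the 8 genes are also given after each library was centred on its own median. As RPM, the reads of a gene scaled to a library total of 1000000 recovered reads, the 16 macrophage markers with reads summed to 6730 to 7791 in IL4 cultures and 10830 to 12988 in control cultures, but only to 618 to 1482 in IL4 marrow and 678 to 839 in control marrow. Lyz2, also a listed macrophage marker, had no recovered reads. The F4/80 gene itself, listed as Emr1, had 37 to 126 reads in IL4 marrow and 28 to 65 in control marrow. In marrow the macrophage markers moved in both directions. Reads of C1qa, C1qb (31 to 110 with IL4 and 4 to 5 in controls), C1qc, Mrc1 (53 to 255 and 9 to 12), Cd163, Mertk, Siglec1 and Vcam1 were higher with IL4. Those of Csf1r (65 to 219 and 227 to 304), Cd68 (17 to 60 and 61 to 67), Fcgr1 (2 to 4 and 20 to 26) and Msr1 were lower. The 6 neutrophil markers measured summed to 41812 to 52321 RPM in IL4 marrow and 56259 to 65463 in control marrow, against at most 462 in any culture library. Most of the marrow sums came from S100a8, S100a9 and Ngp. Ngp had 4446 to 6406 reads in IL4 marrow and 9961 to 11274 in control marrow. The reads of S100a8, S100a9, Csf3r (197 to 671 and 203 to 312), Mmp8 and Mmp9 overlapped between the marrow groups. The label of sorted macrophages was thus met by low macrophage and high neutrophil marker levels in marrow, and in such bulk samples fewer cells of a type and less RNA per cell cannot be told apart. The 6 monocyte markers summed to 232 to 477 RPM in IL4 marrow and 4070 to 5558 in control marrow. Most of the control marrow sum came from Fn1, with 69 to 277 reads in IL4 marrow and 1708 to 2707 in control marrow. Ccr2 had 23 to 46 reads in IL4 marrow and 449 to 530 in control marrow, and Cx3cr1 had 0 reads in every IL4 library of both experiments. Vcan overlapped in marrow, at 12 to 15 and 13 to 53 reads. Sums of the 2 erythroid markers measured were 174 to 241 in IL4 marrow and 1343 to 1403 in control marrow, and those of the 3 progenitor markers were 207 to 236 in IL4 marrow and 112 to 134 in control marrow. Of these, Gata2 had 94 to 143 reads in IL4 marrow and 20 to 31 in control marrow, Sox4 had 9 to 22 and 34 to 37, and Cd34 overlapped at 16 to 42 and 11 to 33. The part of such cells in the results below was not tested. In culture, IL4 library 4 and control library 4 differed from their groups in several of the 8 genes, as given below.

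In culture, 7 of the 8 genes passed an adjusted p of 0.05 (limma, Benjamini-Hochberg over 9474 genes), where 40.5% of all genes did (7.96% higher and 32.6% lower with IL4). The genes that rose with IL4 were Itgax, Pecam1, Itgb2 and Itgam, and those that fell were Itgal, Itga6 and Itga4. In all genes 754 rose and 3084 fell, a split that became 1365 and 1205 after centring. In marrow, 3 of the 8 passed, where 18.2% of all genes did (6.7% higher and 11.5% lower): Pecam1 rose, and Itga4 and Itgal fell. The median log2 fold change of the 8 genes was 0.13 in culture and 0.01 in marrow, beside -0.36 and -0.06 for all genes. IL4 and control libraries did not overlap for 6 of the 8 genes in culture, where 37.7% of all genes did not overlap, and for 6 of the 8 in marrow, where the share was 37.6%.

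**Figure D1:**
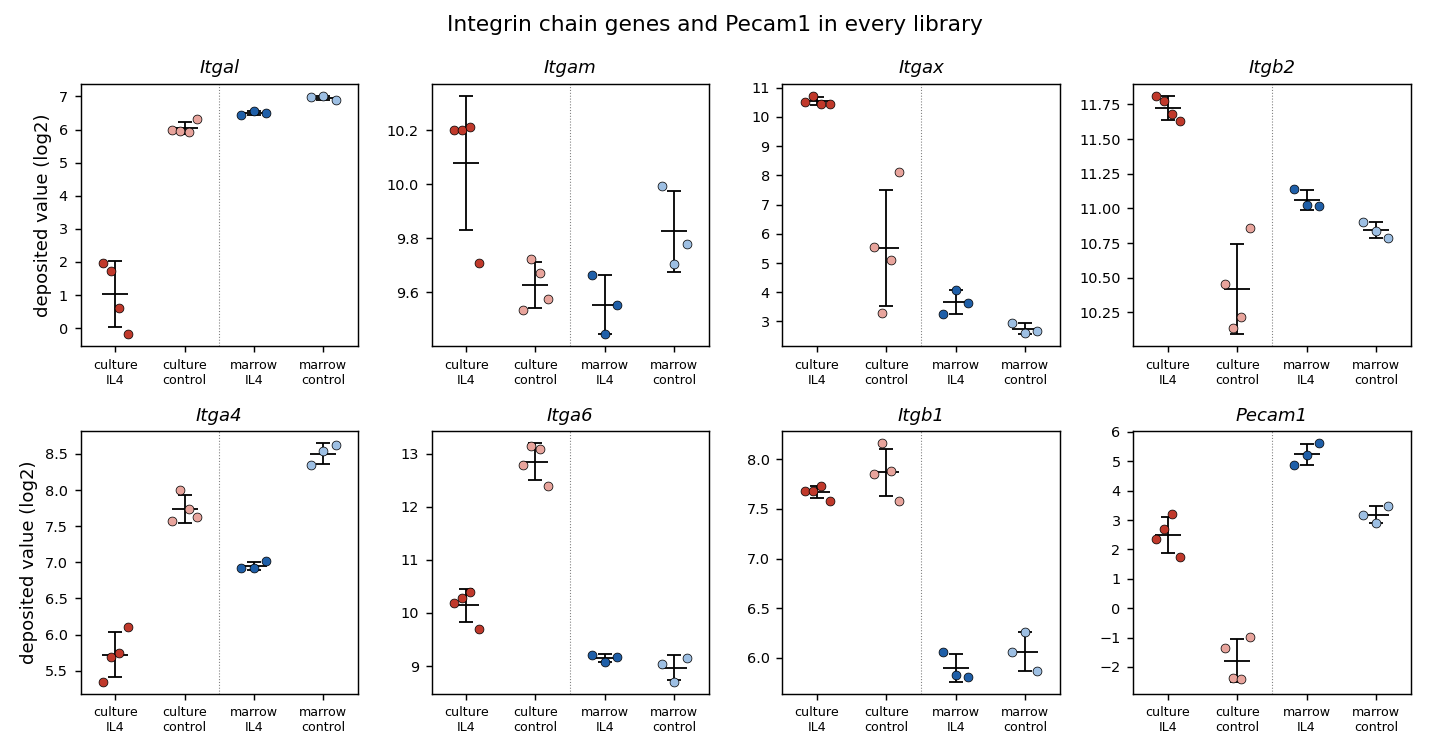
Deposited log2 value (vertical axis, own scale in each panel) of the 8 genes in every library of culture IL4, culture control, marrow IL4 and marrow control. Points are libraries, and bars are the mean ± SD. Itgax in IL4 cultures stands between 10.45 and 10.73, above every other library, and Pecam1 is lowest in control cultures.

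Itgax, the alphaX gene (chromosome 7, 128129547 to 128150657, plus strand, mm10), was the most abundant per length of the 7 genes with reads in IL4 cultures and by its mean stood in the last or next to last place in the other 3 groups. It had 2662, 3101, 2537 and 2532 RPM in IL4 cultures, against 84.8, 16.9, 61.4 and 497 in control cultures. The groups did not overlap, while the control cultures spread widely, with 11 reads in control 2 and 372 in control 4. The log2 fold change was 5.03 ± 0.76 (SE, limma, n = 4 per group, adjusted p = 0.000779) and 5.39 after centring. Leaving out control 4 gave 5.89, and leaving out control 2 gave 4.29, both past the threshold. In marrow the gene was close to the detection limit, with 10, 17 and 19 reads in IL4 libraries and 9, 7 and 8 in control libraries. Each IL4 library exceeded each control library, but the log2 fold change of 0.91 ± 0.28 missed the threshold by a small margin (limma adjusted p = 0.0513). After centring it passed (1.02, adjusted p = 0.0314), as it did after quantile normalization (1.04, 0.0277) and without IL4 library 1 (1.11, 0.0367). Of 11 dendritic cell markers listed, 2 were measured, Bst2 and Irf8, and they summed to 146 to 176 RPM in IL4 cultures and 274 to 429 in control cultures. In marrow their sum was 79.5 to 128 in IL4 libraries and 252 to 367 in control libraries. Irf8 had 23 to 47 reads in IL4 marrow and 139 to 196 in control marrow, while Bst2 overlapped at 25 to 42 and 34 to 54. The part of dendritic cells in the Itgax result was not tested.

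Itgb2, the gene of the shared beta2 chain (chromosome 10, 77530252 to 77565708, plus strand), had log2 values of 11.81, 11.77, 11.68 and 11.63 in IL4 cultures and 10.46, 10.14, 10.22 and 10.86 in control cultures. All IL4 values were above all control values, and the gene rose by 1.31 ± 0.16 (SE, limma adjusted p = 0.000224), or 1.67 after centring. In marrow the values were 11.14, 11.03 and 11.01 in IL4 libraries and 10.91, 10.84 and 10.79 in control libraries. These too did not overlap, but the difference of 0.22 ± 0.12 missed the threshold (limma adjusted p = 0.241), with a 95% interval of -0.05 to 0.48.

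Itgam, the alphaM gene (chromosome 7, 128062640 to 128118491, plus strand), changed little beside its beta chain. There were 2103, 2110, 2106 and 1493 RPM in IL4 cultures and 1329, 1498, 1452 and 1352 in control cultures. The first 3 IL4 cultures were nearly equal and lay above all controls, while IL4 culture 4 lay within the control range on the log2 scale. The gene rose by 0.45 ± 0.14 (SE, limma adjusted p = 0.0237), or 0.82 after centring. The call was lost without IL4 culture 1, 2 or 3 or control culture 1 (adjusted p = 0.0638 to 0.0654). In marrow, Itgam had 1438, 1225 and 1325 RPM in IL4 libraries and 1815, 1486 and 1565 in control libraries. The difference of -0.27 ± 0.13 was not called (limma adjusted p = 0.179), whereas the fits on recovered reads called it, at -0.28 with 2 reads added (0.0260) and -0.28 with limma voom (0.0353). In the GENCODE M21 annotation an exon of Gm49368 overlaps Itgam on the same strand, and reads of the overlap could not be assigned here.

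Itgal, the alphaL gene (chromosome 7, 127296260 to 127335138, plus strand), was scarce in IL4 cultures. Its reads numbered 13, 11, 4 and 2 in IL4 cultures, against 240, 162, 163 and 239 in control cultures. The highest IL4 culture was far below the lowest control. The log2 fold change was -5.02 ± 0.42 (SE, limma adjusted p = 2.23e-05), or -4.66 after centring, and the ratio of summed reads was 0.0356 (exact 95% interval 0.0238 to 0.0512, counting error only). In marrow, Itgal had 345, 377 and 358 RPM in IL4 libraries and 513, 516 and 476 in control libraries, again with no overlap. It fell by 0.46 ± 0.12 on the log2 scale there (SE, n = 3 per group, limma adjusted p = 0.0316). That call was lost after centring (-0.36, adjusted p = 0.0739), after quantile normalization (-0.40, 0.0533), with no variance trend (0.0777) and without any 1 library except IL4 library 2 (0.0684 to 0.0933). Monocyte marker sums were lower in the same IL4 marrow libraries, as given above, and their part in the change was not tested.

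Itga4, the alpha4 gene (chromosome 2, 79255426 to 79333123, plus strand), fell in both experiments, under each alternative tried. It had 75.6, 96.4, 99.0 and 128 RPM in IL4 cultures, against 355, 475, 399 and 368 in control cultures. In marrow it had 224, 222 and 238 in IL4 libraries, against 607, 693 and 739 in control libraries. Neither pair of groups overlapped, and the IL4 marrow libraries were close to each other. The gene fell by 2.01 ± 0.17 in culture (SE, limma adjusted p = 2.36e-05) and by 1.56 ± 0.12 in marrow (adjusted p = 0.000111), a rank of 35 by p among all genes in marrow. After centring the log2 fold changes were -1.65 in culture and -1.45 in marrow. The monocyte marker sum was also lower with IL4 in marrow. In culture that sum was higher, at 3078 to 4146 RPM with IL4 and 745 to 1337 without, through Fn1 (2123 to 3528 reads with IL4 and 214 to 456 without). The other monocyte markers were lower or overlapped: Ccr2 had 2 to 29 reads with IL4 and 47 to 144 without, Cx3cr1 0 and 154 to 286, and F13a1 5 to 40 and 59 to 114. Vcan had 1 to 4 and 4 to 18, and Nr4a1 overlapped at 1 to 17 and 7 to 19. The part of these markers' cells in the Itga4 result was not tested. Exons of Cerkl on the other strand overlap Itga4 in the annotation, and the use of strand in counting is not given in the sources used here.

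Itga6, the alpha6 gene (chromosome 2, 71745616 to 71858416, plus strand), responded in culture. It had 96.5, 103, 111 and 68.4 RPM in IL4 cultures, against 589, 745, 727 and 444 in control cultures. Library 4 was the lowest of its group in both, and the groups were far apart. The gene fell by 2.71 ± 0.20 (SE, limma adjusted p = 1.28e-05), or to a log2 fold change of -2.35 after centring. In marrow it was low in all libraries, with 29, 25 and 41 reads with IL4 and 29, 23 and 34 in controls, and the groups overlapped. The difference of 0.18 ± 0.14 was not called (limma adjusted p = 0.417, 95% interval -0.14 to 0.50).

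Itgb1, the beta1 gene (chromosome 8, 128685654 to 128733200, plus strand), was not called in either experiment. IL4 cultures held 799, 799, 822 and 746 RPM, and control cultures 900, 1104, 914 and 738. IL4 marrow held 257, 217 and 214, and control marrow 258, 297 and 226. The groups overlapped in both. The log2 fold change was -0.20 ± 0.13 in culture (SE, limma adjusted p = 0.247, 95% interval -0.49 to 0.09), with the sign turned to 0.16 by centring, and -0.16 ± 0.16 in marrow (adjusted p = 0.529, 95% interval -0.52 to 0.19).

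Pecam1 (chromosome 11, 106654217 to 106750628, minus strand) rose in both experiments. In culture it had 17, 22, 27 and 9 reads with IL4, against 1, 0, 0 and 1 in controls. In marrow it had 71, 84 and 170 reads with IL4, or 118, 145 and 194 RPM, against 24, 20 and 32 in controls, or 35.4, 29.4 and 44.1 RPM. No IL4 library reached down to a control library in either experiment. With 75 reads in IL4 cultures and 2 in control cultures, the ratio per recovered read was 35.8, with an exact 95% interval of 9.56 to 301 that covers counting error only. The fitted log2 fold change in culture, 4.29 ± 0.48 (SE, limma adjusted p = 0.000122), depends on the amount added to the reads and was 2.92 with 2 reads added. After centring it was 4.65. In marrow the log2 fold change was 2.05 ± 0.25 (SE, limma adjusted p = 0.000819), or 2.15 after centring, and the ratio of reads was 4.33 (3.36 to 5.63).

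Markers of endothelial cells, of platelets and megakaryocytes and of eosinophils were set beside Pecam1. Those of monocytes, neutrophils and progenitors, which also differed in sum between the marrow groups, are given above. Both endothelial markers measured, Eng and Vwf, summed to 10.3 to 18.2 RPM in IL4 marrow and 22 to 42.7 in control marrow, and to 255 to 328 in IL4 cultures and 105 to 152 in control cultures. In culture these 2 markers differed: Vwf had 128 to 230 reads with IL4 and 11 to 51 without, and Eng 45 to 63 with IL4 and 54 to 120 without. The 3 platelet and megakaryocyte markers, Itgb3, Pf4 and Vwf, summed to 5592 to 7590 in IL4 marrow and 1703 to 2496 in control marrow, almost all of it from Itgb3, a gene also used by macrophages. Their sums in culture were 4845 to 7184 with IL4 and 527 to 789 without, again mostly from Itgb3. Pf4 had 16 to 44 reads in IL4 cultures and 149 to 362 in control cultures. In marrow Pf4 had 1 to 6 reads in IL4 libraries and 1 in each control library, and Vwf had 0 to 6 and 2 to 6. Eosinophil markers (3 measured) summed to 146 to 217 RPM in IL4 marrow and 69.3 to 83.7 in control marrow, mostly from Prg2. Prg2 had 71 to 132 reads in IL4 marrow and 41 to 50 in control marrow. Siglec5 (4 to 9 and 4 to 8) and Ccr3 (3 to 5 and 0 to 3) overlapped. The part of these cell types in the Pecam1 result was not tested.

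**Figure D2:**
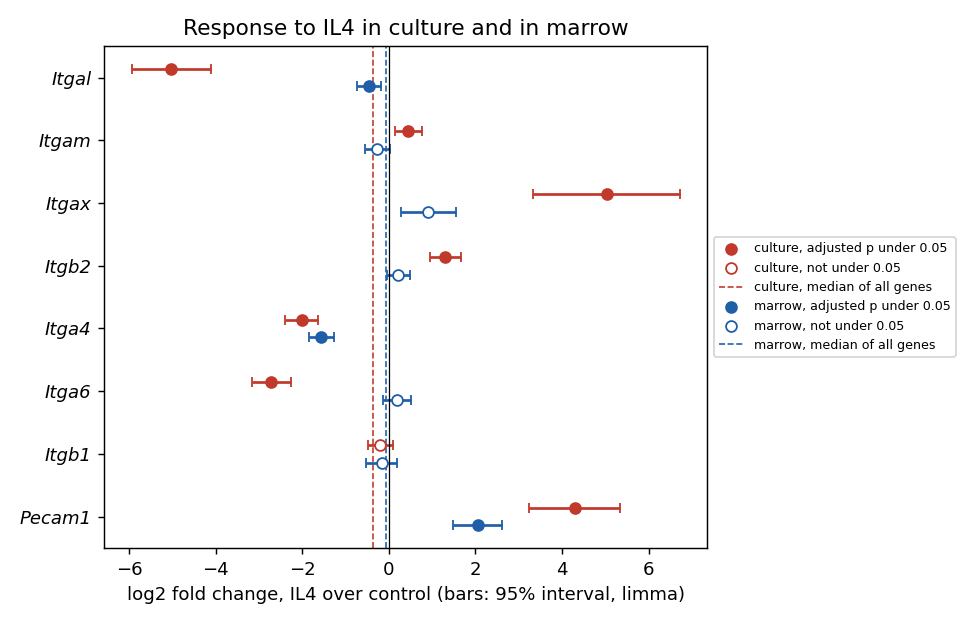
Log2 fold change, IL4 over control (horizontal axis), of the 8 genes in culture (red) and in marrow (blue). Bars are 95% intervals from limma, filled points have an adjusted p under 0.05, and dashed lines are the medians of all genes (-0.36 in culture and -0.06 in marrow). The culture and marrow intervals overlap for Itga4 and Itgb1 and lie apart for the other 6 genes.

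Whether the response differed between the experiments was tested with an interaction term over all 14 libraries, as culture response minus marrow response. Of the 8 genes, 6 passed an adjusted p of 0.05, where 23.1% of all genes did (6.45% higher and 16.6% lower in culture). The response was lower in culture for Itgal (-4.55 ± 0.53, SE, limma adjusted p = 4.61e-05) and Itga6 (-2.90 ± 0.28, 1.02e-05). It was higher in culture for Itgax (4.12 ± 1.01, 0.00920), Pecam1 (2.24 ± 0.58, 0.0127), Itgb2 (1.09 ± 0.21, 0.00212) and Itgam (0.73 ± 0.19, 0.0141). The median of this difference over all genes was -0.30, and the same 6 genes passed after centring in the same directions. For Pecam1 the difference rests on 2 reads in control cultures, and it missed the threshold at 0.94 with 2 reads added (adjusted p = 0.0942). The responses of Itga4 differed by -0.46 ± 0.23 (limma adjusted p = 0.159, 95% interval -0.94 to 0.03), which passed without IL4 culture 4 (-0.59, 0.0451). Those of Itgb1 differed by -0.04 ± 0.20 (0.922, 95% interval -0.46 to 0.39).

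Levels can be compared between genes only per length, and RPM per kilobase of the longest GENCODE M21 transcript was used for the 7 genes with reads. Which transcript was expressed was not determined, so the orders and shares below depend on this choice. That length is 9767 nt for Itga4, beside 3441 to 5222 nt for the other genes with reads. In IL4 cultures Itgax led with 669 ± 66.5 (SD, n = 4), followed by Itgam (417 ± 65.5) and Itgb1 (207 ± 8.47), with no overlap between neighbours in this order. Below them came Itga6 (22 ± 4.32), Itga4 (10.2 ± 2.22), Pecam1 (6.89 ± 2.92) and Itgal (1.73 ± 1.12), of which Itga4 and Pecam1 overlapped. In control cultures the order was Itgam (301 ± 17.2), Itgb1 (240 ± 39.2), Itga6 (145 ± 32.4), Itgal (51.0 ± 6.75), Itga4 (40.9 ± 5.50), Itgax (40.8 ± 55.1) and Pecam1 (0.174 ± 0.204). There the ranges of Itgam and Itgb1 overlapped, as did those of Itgal and Itga4. Itgax, at 4.17 to 123, overlapped Itga4, Itgal and Itga6, so its place in that order rests on its mean.

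In IL4 marrow Itgam led with 284 ± 22.8 (SD, n = 3), then Itgal (68.9 ± 3.16), Itgb1 (60.1 ± 6.25), Pecam1 (44.2 ± 11.2), Itga4 (23.3 ± 0.894), Itga6 (10.7 ± 0.596) and Itgax (5.56 ± 1.58). Itgb1 overlapped both Itgal and Pecam1. In control marrow the order was Itgam (346 ± 36.6), Itgal (96.1 ± 4.20), Itga4 (69.6 ± 6.86), Itgb1 (68.2 ± 9.31), Pecam1 (10.5 ± 2.15), Itga6 (9.54 ± 1.55) and Itgax (2.85 ± 0.385). Overlaps there were those of Itga4 with Itgb1 and of Pecam1 with Itga6. Itgam thus held the top place in 3 groups and the next place in IL4 cultures, where Itgax led.

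**Figure D3:**
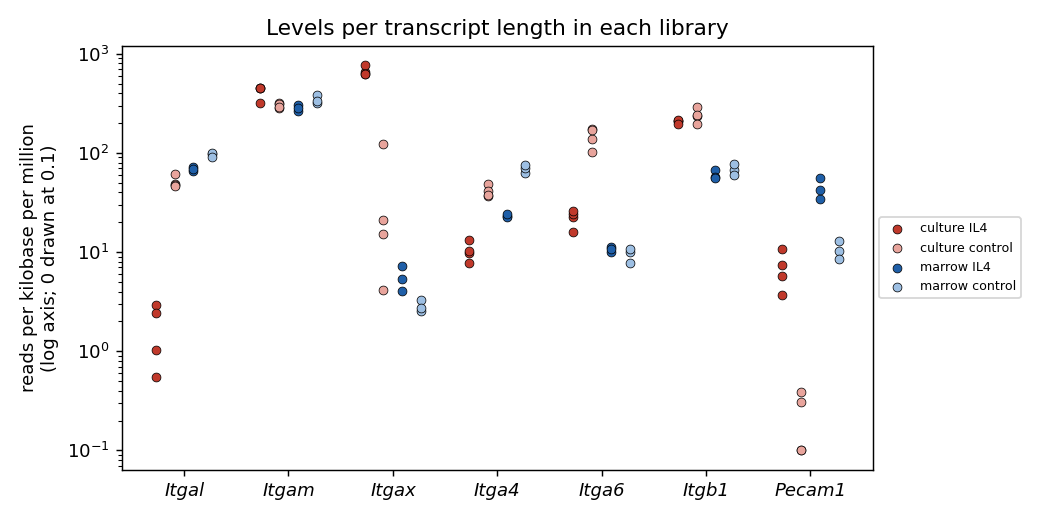
RPM per kilobase (log axis, values of 0 drawn at 0.1) of the 7 genes with recovered reads, 1 point per library. Itgax in IL4 cultures is the highest of all points and Pecam1 in control cultures the lowest, while Itgam stays within 262 to 451.

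The shares of the 3 alpha chain genes that pair with beta2 in their summed length-scaled reads were taken in each library. In IL4 cultures Itgax took 58.2% to 66.2%, Itgam 33.7% to 41.7% and Itgal 0.0578% to 0.261%. Control cultures gave Itgax 1.12% to 26.0%, Itgam 61.1% to 86.1% and Itgal 12.6% to 13.8%, the highest Itgax share being in control 4. In IL4 marrow Itgax took 1.09% to 2.12%, Itgam 76.7% to 81.4% and Itgal 17.5% to 21.2%. In control marrow the shares were 0.607% to 0.670%, 75.8% to 79.2% and 20.1% to 23.6%, in the same order of genes. The Itgam and Itgal shares of the marrow groups overlapped, whereas the Itgax share did not overlap in either experiment. In marrow the Itgax shares rest on 10 to 19 reads in IL4 libraries and 7 to 9 in control libraries.

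**Figure D4:**
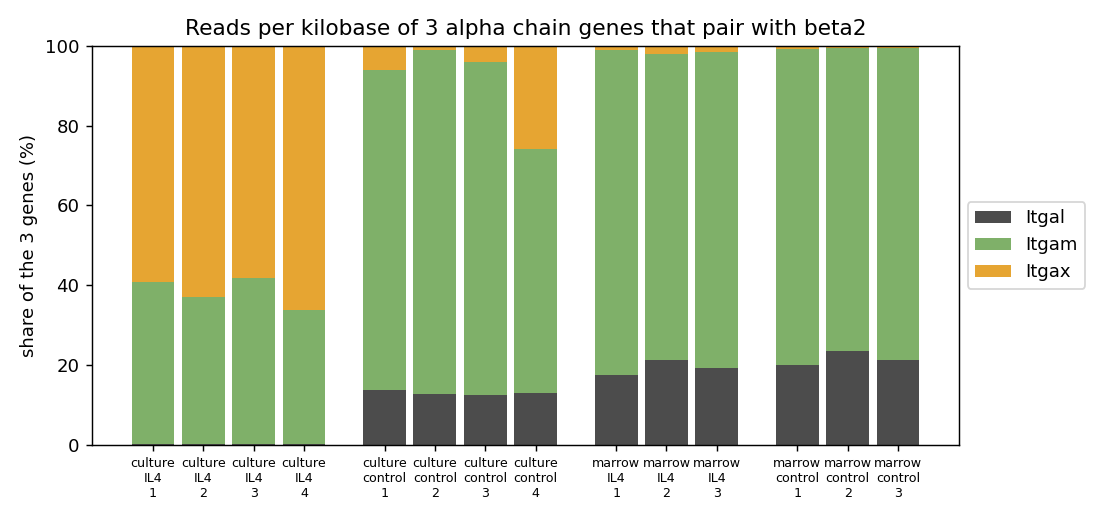
Share (%) of Itgal, Itgam and Itgax in their summed reads per kilobase, 1 bar per library, in the order culture IL4, culture control, marrow IL4 and marrow control. Itgax holds 58.2% to 66.2% of each IL4 culture bar, and Itgam most of every other bar.

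Set against its beta chain in the same library, each alpha chain gave a difference that needs no library scaling. In culture the log2 difference of Itgax and Itgb2 was higher by 3.72 with IL4 than in controls, that of Itgam and Itgb2 lower (-0.85) and that of Itgal and Itgb2 lower (-6.33). In marrow the same 3 differences were 0.69, -0.49 and -0.68, and IL4 and control libraries did not overlap in any of the 6 cases. Among single genes, 37.7% in culture and 37.6% in marrow did not overlap, and no such share was computed for differences between genes. The difference of Itga4 and Itgb1 was lower with IL4 in culture (-1.82) and in marrow (-1.39), without overlap. That of Itga6 and Itgb1 was lower in culture (-2.51, no overlap) and was 0.35 in marrow, where the groups overlapped.

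In the authors' deposited table for culture, the fold change of Pecam1 is 244, that of Itgax 2.01, that of Itgb2 1.13 and that of Itgal 0.0625 with a q-value of 0.138. The difference of the deposited log2 values gives folds of 19.5, 32.6, 2.48 and 0.0308 for these genes. For the 8685 genes whose culture values are all above 0, the authors' deposited fold change was within 0.001 on the log2 scale of the one obtained after a second log2 of the log2 values in 8682 (99.97%), with a largest gap of 0.37. Pecam1 and Itgal have culture values below 0 and are outside these genes, so their deposited fold changes were not checked in this way. In the marrow table the authors' deposited fold changes, such as 4.14 for Pecam1 (q = 0.0369) and 0.340 for Itga4 (q = 0.0189), match the difference of the log2 values. By the authors' deposited q-values below 0.05, Itgal was not called in culture, and Pecam1, Itga4 and Itgal (q = 0.0342) were called in marrow.

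Other integrin chains were few in the tables. Of 5 measured, 1 rose and 2 fell in culture (median -0.45, beside -0.36 for all genes), and 1 rose and 1 fell in marrow (median -0.74, beside -0.06). Itgb3, the beta3 chain of the vitronectin receptor, rose by 4.34 ± 0.15 in culture (SE, limma adjusted p = 3.09e-08) and by 1.66 ± 0.18 in marrow (0.000455), with a response higher in culture by 2.68 ± 0.23 (5.41e-06). Its reads numbered 3254 to 5922 in IL4 cultures and 172 to 287 in control cultures. In culture Itgav, its alphaV partner, fell by 1.17 ± 0.12 (9.48e-05) and Itgb5, the beta5 chain, by 1.38 ± 0.15 (9.53e-05). In marrow Itgb7, the other beta chain that pairs with alpha4, fell by 1.17 ± 0.17 (0.00163).

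Of 14 integrin ligand genes measured, 3 rose and 6 fell in culture (4 and 4 after centring), and 7 rose and 2 fell in marrow. Their median log2 fold change was -0.72 in culture and 0.77 in marrow. Fn1, the fibronectin gene, rose by 3.09 ± 0.28 in culture (SE, limma adjusted p = 3.81e-05) and fell by 4.20 ± 0.34 in marrow (0.000122), and the difference of 7.30 ± 0.50 passed (1.36e-06). It had 2123 to 3528 reads in IL4 cultures against 214 to 456 in control cultures, and 69 to 277 in IL4 marrow against 1708 to 2707 in control marrow. Cdh1, the E-cadherin gene, had 249 reads over the IL4 cultures and 1 over the control cultures, a ratio of 237 (exact interval 42.2 to 9415). In marrow Thbs1, the thrombospondin-1 gene, had 1 read over the IL4 libraries and 625 over the controls, a ratio of 0.00162 (4.09e-05 to 0.00905). The collagen genes Col1a2 (-3.12 ± 0.31) and Col1a1 (-3.04 ± 0.30) fell in culture. C3, whose fragment iC3b is a ligand of alphaM and alphaX, rose in marrow by 1.35 ± 0.12 (0.000217). Fbn1, the fibrillin-1 gene, had 32 reads in IL4 marrow and 1 in control marrow. The osteopontin gene Spp1 had the response most clearly lower in culture than in marrow (-4.31 ± 0.42, 1.22e-05), followed by Col1a2 (-5.53 ± 0.60). The marrow side of Col1a2 rests on 16 reads with IL4 and 2 in controls, and that of Spp1 on 116 and 20.

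Among 31 genes of integrin activation from inside the cell, 1 rose and 14 fell in culture (3 and 10 after centring, median -0.43), and 4 rose and 1 fell in marrow (median 0.04). The adaptor gene Fyb, whose product ADAP takes part in integrin activation in leukocytes, fell by 2.14 ± 0.12 (SE, limma adjusted p = 1.73e-06), and Kank2, which encodes a talin-binding protein, had a log2 fold change of -2.67 ± 0.28 (8.23e-05). Pip5k1c, the kinase that makes the talin-binding lipid at adhesions, rose by 0.62 ± 0.16 (0.0135). In marrow Rassf5, the Rap1 effector RAPL, rose by 1.0 ± 0.16 (0.00260), and Raph1, encoding lamellipodin, fell by 0.86 ± 0.24 (0.0379). Dab2, an adaptor of integrin endocytosis that stands in 2 of the lists, had 54 reads in IL4 marrow and 4 in control marrow, and fell in culture by 2.63 ± 0.30 (0.000149).

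Of 40 signalling genes downstream of integrins, 2 rose and 27 fell in culture, where 32.6% of all genes fell, and 3 rose and 17 fell after centring. Their median was -0.61 in culture and -0.05 in marrow. Ptpn6, the phosphatase SHP-1, fell by 1.56 ± 0.12 (SE, limma adjusted p = 1.77e-05). The Rac activators Elmo2 (0.94 ± 0.13, 0.000507) and Dock2 (0.53 ± 0.14, 0.0130) rose. Related genes of the list fell, namely Elmo1 (-2.06 ± 0.21, 7.64e-05), Vav1 (-1.15 ± 0.12, 9.49e-05), Dock8 (-0.99 ± 0.14, 0.000607) and Dock1 (-0.60 ± 0.18, 0.0217). In marrow 1 rose and 2 fell: the GTPase gene Rac2 (0.46 ± 0.12, 0.0263), and the phospholipase genes Plcg1 (-1.04 ± 0.20, 0.00703) and Plcg2 (-0.60 ± 0.15, 0.0222). The response was lower in culture than in marrow for 20 of the 40 genes, led by Ptpn6 (-1.66 ± 0.16) and the adaptor gene Fcer1g (-1.32 ± 0.15), and higher for 2, Elmo2 and Plcg1.

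Of 32 focal adhesion and podosome genes, 6 rose and 15 fell in culture, a split that turned to 11 and 9 after centring, and 3 rose and 4 fell in marrow. The zyxin gene Zyx rose by 1.56 ± 0.12 (SE, limma adjusted p = 1.63e-05) and the alpha-actinin-1 gene Actn1 by 0.92 ± 0.14 (0.000727) in culture. Coro1a, encoding the actin-binding protein coronin-1A, fell by 2.43 ± 0.23 (4.11e-05) as did the RhoGAP gene Hmha1 (-1.46 ± 0.14, 4.88e-05). In marrow, of the parvins that link integrins to actin, Parvg rose by 0.77 ± 0.14 (0.00532) and Parvb fell by 3.37 ± 0.31 (0.000217). Myh9 (0.39 ± 0.11, 0.0431) rose and Tns3, a tensin gene, fell by 1.48 ± 0.26 (0.00481).

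Of 13 partners of PECAM1 and of leukocyte passage, 2 rose and 5 fell in culture (4 and 3 after centring, median -0.34), and 2 rose and 1 fell in marrow (median 0.10). Cd47, whose product binds SIRPA and integrins, rose in both, by 0.35 ± 0.11 in culture (SE, limma adjusted p = 0.0321) and 0.68 ± 0.12 in marrow (0.00532). Pvr, the poliovirus receptor gene, rose in culture (1.40 ± 0.41, 0.0215), where Sirpa (-0.94 ± 0.10, 8.62e-05) and L1cam (-2.36 ± 0.48, 0.00365) fell. In marrow the nectin-2 gene Pvrl2 had 51 reads with IL4 and 1 in controls, and the inhibitory receptor gene Pilra fell by 0.87 ± 0.15 (0.00364).

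Tetraspanins and other lateral partners of integrins included 8 of 18 genes that rose and 2 that fell in culture (12 and 1 after centring), with a median of 0.29 beside -0.36 for all genes. In marrow 4 rose and 3 fell (5 and 1 after centring, median 0.22). Ptgfrn, a tetraspanin-associated protein gene, rose by 1.78 ± 0.25 (SE, limma adjusted p = 0.000464) and Cd151, a tetraspanin that binds laminin-binding integrins, by 1.08 ± 0.16 (0.000768) in culture. Tspan4 (-0.89 ± 0.14, 0.000935) and Cd81 (-1.08 ± 0.34, 0.0286) fell, the Cd81 call being lost after centring (adjusted p = 0.127). In marrow Cd63 (1.57 ± 0.15, 0.000255) and Slc3a2, the CD98 heavy chain gene (1.44 ± 0.19, 0.00138), rose, Bsg fell by 0.71 ± 0.20 (0.0390, against 0.0579 after centring), and Ptgfrn had 1 read with IL4 and 15 in controls. Of 30 genes of integrin trafficking, 4 rose and 16 fell in culture, a split that turned to 7 and 4 after centring, and 4 rose and 2 fell in marrow. In culture Ap2m1 (0.69 ± 0.14, 0.00423) and Arf6 (0.49 ± 0.10, 0.00478) rose and Rab11a fell by 1.06 ± 0.16 (0.000740). In marrow Numb rose (0.86 ± 0.21, 0.0220), and Asap1 (-0.90 ± 0.14, 0.00242) and Ap2a1 (-0.46 ± 0.13, 0.0370) fell, with 0.0994 for Ap2a1 after centring.

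**Figure D5:**
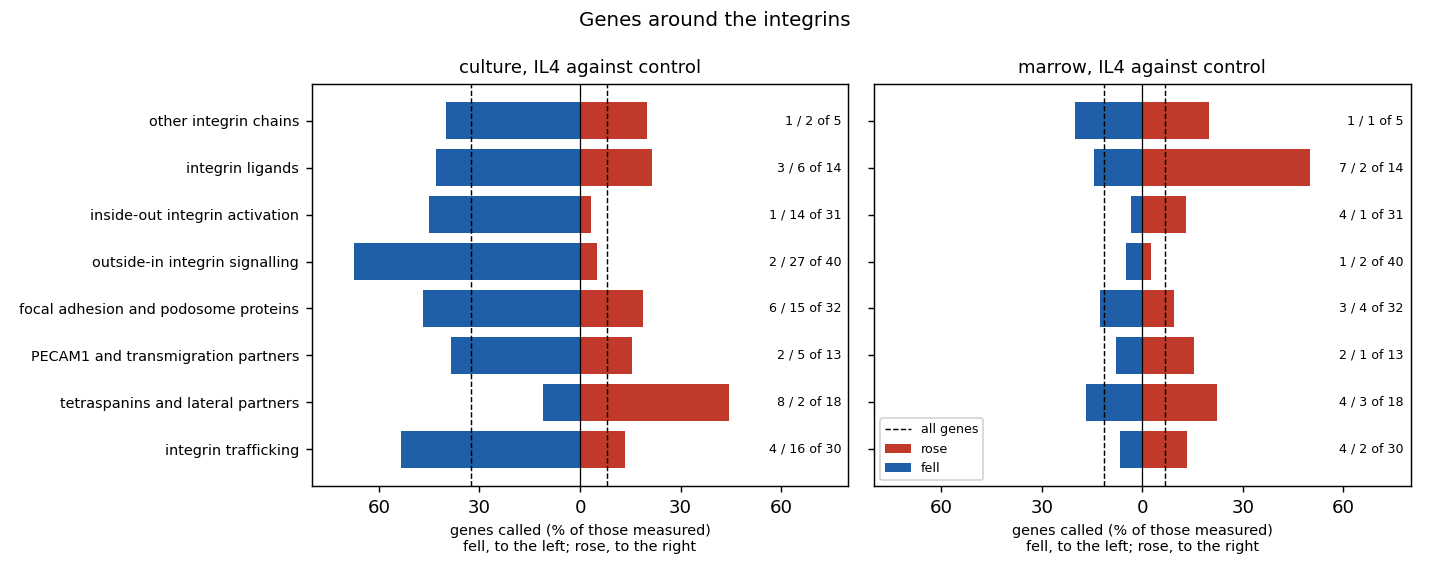
Share (%) of the measured genes of each list that rose (red, to the right) or fell (blue, to the left) with IL4 in culture and in marrow, at a limma adjusted p under 0.05. Numbers at the right give genes that rose and fell of those measured, and dashed lines the same shares over all genes, 7.96% and 32.6% in culture and 6.7% and 11.5% in marrow. The signalling list reaches farthest to the left in culture, and the ligand list farthest to the right in marrow.

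Genes whose pattern over the 14 libraries was most like each member were ranked by Pearson's r after each gene was centred within each experiment, as a description in which all points share libraries and the IL4 contrast. For Itgax they were Csf2rb2 (r = 0.975), a receptor chain of the IL3, IL5 and GM-CSF family, then Itgb2 (0.974) and the galectin-3 gene Lgals3 (0.972). For Itgb2 they were Smap2 (0.987), Csf2rb2 (0.985) and Clic4 (0.977), and for Pecam1 Bhlhe40 (0.980), a transcription factor gene, Csf2rb (0.970) and the proteoglycan gene Srgn (0.970). Itgal was most like Ssh2 (0.977), Pik3ap1 (0.966) and Ier2 (0.966), and Itga4 was like Ly86 (0.984) and the lysozyme gene Lyz2 (0.977). Itga6 was most like Coro1a (0.988), Fam129a (0.985) and Dock5 (0.983). Itgam was most like Azin1 (0.977), Mcl1 (0.934) and Ago2 (0.930), and the least matched gene was Itgb1, with Ppm1b (0.866), Ctcf (0.857) and Atg4b (0.839).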

How the data were processed

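Total RNA was purified with QIAshredder and RNeasy Micro columns and TruSeq RNA v2 libraries were prepared, per the labels' protocols. The tools bcl2fastq and TopHat2 (2.0.13) and the build mm10 are named in the submitters' processing notes. For counting tool, gene filter, normalization and use of strand the status is: not given in the sources used here. Library values were deposited by the authors as log2 numbers. Their deposited linear fold changes stand beside them, with deposited p-values and q-values. The number of per-sample columns left unused was 0.

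After removing 1 offset for the gene and 1 for the library, each value is log2(reads + 0.5) of a whole number of reads. Solving for these gave reads in all libraries for 9415 genes (99.4%), and the fit missed no value under 100 reads by more than 0.000512 on the log2 scale. The genes left out include Itgb2. Depth was 580366 to 943482 recovered reads, and scarce transcripts are imprecise. Exact 95% intervals of read ratios are conditional binomial and cover counting error only.

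Groups came from the labels. limma 3.58.1 in R 4.3.3 with a variance trend was fitted to the deposited values within each table, 4 against 4 and 3 against 3 libraries, and over all 14 libraries for the difference of responses. Tests are two-sided, adjusted by the Benjamini-Hochberg method over 9474 genes, and were tested on simulated data. The members and gene lists were chosen with earlier results of these data known. The 8 members were always named, and in each list the 2 called genes of smallest p in each direction and comparison. Some genes that these rules name are not reported here. Genes most like a member were taken among 6221 genes whose mean level exceeded the 25th percentile in each table, without predicted genes. Gene symbols were matched also through RefSeq synonyms, and coordinates and transcript lengths come from GENCODE M21 (GRCm38, the build also called mm10). Alternatives were no variance trend, centring, quantile normalization, a filter on low genes, 2 reads added, limma voom, a replicate block and leaving out libraries, and both culture libraries numbered 4 were left out together as a choice made after seeing the data. Libraries of a group differed by more than sampling noise (chi-square divided by its degrees of freedom, 1.50 to 6.56), and each was kept as its own sample. Pairs with a culture library numbered 4 gave 4.49 to 6.56, and all other pairs 1.50 to 2.46.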

Additional observations from a re-analysis of the deposited data

Results flagged for a closer look

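The IL4 response differed between culture and marrow by the interaction test for 6 of the 8 genes. On the log2 scale, culture minus marrow, the differences were -4.55 for Itgal, 4.12 for Itgax, 0.725 for Itgam, 1.09 for Itgb2, -2.90 for Itga6 and 2.24 for Pecam1.

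In 2 of the 16 sets of 4 culture values examined, 1 library lay far from the others. Itgal in control culture 4 had a log2 value of 6.3186 beside 5.93 to 5.98 in the other control cultures. Itgam in IL4 culture 4 had 9.7086 beside 10.20 to 10.21 in the other IL4 cultures. Chance alone marks about 1 such set in 20, and sets of 3 libraries were not examined.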

How the results depend on the processing

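Of the 8 genes, 6 to 7 were called in culture, 2 to 4 in marrow and 5 to 7 for the difference of responses under all alternatives. Direction and side of the threshold held under each alternative for Itgal, Itgax, Itgb2, Itga4, Itga6 and Pecam1 in culture, for Itga4 and Pecam1 in marrow, and for the differences of Itgal, Itgax, Itgam, Itgb2 and Itga6. Itgb2 had no value with limma voom, and Pecam1 none in culture or for the difference under the filter on low genes. The sign of Itgb1, never called, turned in culture with centring (0.16), and for the difference of responses with centring (0.22), quantile normalization (0.0739), and without control culture 2, IL4 marrow 1 or control marrow 3 (leaving out 1 library gave -0.13 to 0.0631). Leaving out 1 library, the number of genes called in marrow was 1104 (without control 3) to 1460, with 1147 without control 2, beside 1721. Deviations of same-numbered libraries correlated weakly, at -0.045 to 0.022 in culture, beside -0.034 to 0.033 for other pairs. In marrow they correlated at 0.026 to 0.059, above the -0.044 to 0.012 of other pairs. Such small values do not settle whether replicate numbers pair the marrow libraries. With the replicate block 7, 3 and 6 of the 8 genes were called, as without it, beside 3447, 1764 and 1925 of all genes. The libraries are shallow, which limits Pecam1 in culture, Itgal with IL4 in culture and Itgax in marrow most.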

Other observations

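The constant per gene in the deposited values equals the negative log2 of a whole number. Of 4627 genes with a precise value of that number, 99.98% lay within 0.1 of a whole number, the smallest being 22. It was 85 for Itga6, 1826 for Itgam, 1857 for Itgax, 1915 for Itga4, 3978 for Itgb1, 4110 for Pecam1 and 4126 for Itgal. The longest GENCODE M21 transcripts of these genes have 4310, 4682, 4046, 9767, 3815, 3441 and 5222 nt. Across 9024 genes with an annotated length, which are not independent replicates, Spearman's rho between this number and the longest transcript was -0.0068. For this reason deposited levels were not compared between genes, and Itga6, whose deposited log2 values reach 13.14, had fewer reads than Itgb1 in every library.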
